A study of Mus musculus with 48 samples.

Results

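Cux1, Cux2, Rorb, Lamp5, Stard8, Calb1, Pou3f2 and Lhx2 are genes used as marks of, or enriched in, projection neurons of the upper layers of the mouse cerebral cortex. They were selected by name from a table of 48795 genes, of which 19547 had enough reads to be tested, and all 8 members were among those tested. The choice was made with measured Q140 differences of these libraries in view, so their Q140 values are a description that supports nothing. The interactions are differences between those Q140 values and are described in the same way. Only the Msh3 and sex comparisons and the spread among libraries of 1 group are tested. Rasgrf2, another upper-layer gene, was left out because it lies beside Msh3 on chromosome 13. The data are RNA-seq libraries of cerebral cortex from 12-month-old mice on a C57BL/6 background, from a cross of a Huntington's disease model with mice carrying a mutant Msh3 gene.

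The 6 groups were Q140 Msh3-/-, Msh3-/-, Q140 Msh3+/-, Msh3+/-, Q140 and WT, each with 8 libraries from 4 female and 4 male mice. Q140 mice carry a huntingtin gene with an expanded CAG repeat, knocked into the mouse locus, and Msh3 encodes a mismatch repair protein that promotes the lengthening of such repeats in somatic cells. The labels do not state which part of Msh3 is deleted or whether the mutants lack it in all cells, and each group is named here as labelled. The Q140 mice are labelled as heterozygous knock-ins, and the labels name no treatment.

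The cortex is built of layers whose excitatory neurons project to different places. Neurons of the upper layers mostly connect areas of cortex with each other, within and across the hemispheres, while neurons of layer 4 receive thalamic input and those of layers 5 and 6 send axons to subcortical targets. Cux1 and Cux2 encode homeodomain transcription factors that mark upper-layer neurons and shape their dendrites and spines, and Rorb encodes a nuclear receptor that marks layer 4. Pou3f2, also called Brn2, and Lhx2 encode transcription factors that act in the specification of cortical neurons and of the cortical field. Lamp5 encodes a membrane protein of neurons, Calb1 the calcium buffer calbindin, and Stard8 a protein with a lipid-binding START domain. Lamp5 and Calb1 are also expressed in some cortical interneurons, and Lhx2 also in glia, so none of these values belongs to upper-layer neurons alone. In bulk tissue, fewer cells of a type and less RNA per cell cannot be told apart.

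The genes lie on 5 chromosomes of mouse genome build GRCm38, with positions from GENCODE M21. Cux1 (ENSMUSG00000029705) spans chr5:136248135-136567490 and Cux2 (ENSMUSG00000042589) chr5:121856366-122050102, both on the minus strand and 101 Mb and 87.1 Mb from Htt on the same chromosome. Rorb (ENSMUSG00000036192) spans chr19:18930605-19111196 on the minus strand. Lamp5 (ENSMUSG00000027270) at chr2:136052239-136069917 and Lhx2 (ENSMUSG00000000247) at chr2:38339281-38369733 are on the plus strand. Stard8 (ENSMUSG00000031216) is X-linked, at chrX:99003248-99074728 on the plus strand. Calb1 (ENSMUSG00000028222) at chr4:15881264-15908064 is on the plus strand and Pou3f2 (ENSMUSG00000095139) at chr4:22482780-22488366 on the minus strand. The counts pool all transcripts of a gene, which for Cux1 includes the transcript of the Golgi protein CASP. Genes on the opposite strand overlap Cux1, Cux2 and Lhx2, and of these Gm27197 at Lhx2 was the only one with enough reads to be tested, at a mean of 0.557 CPM (counts scaled to the library total).

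Promoter windows from RefSeq (GRCm38.p6), each covering 250 bases before to 50 bases after a transcript start, were matched to 7 of the 8 members by 11 windows, with Calb1 unmatched. The windows of Stard8 and Lamp5 are shown because these are the 2 members with the largest Q140 differences. Both are written 5′ to 3′ on the plus strand in lower case, with the GC box letters GGGCGG or their reverse complement CCGCCC in capitals. The Stard8 window is chrX:99042331-99042630, whose transcript start lies 39333 bases inside the GENCODE gene, and the Lamp5 window is chr2:136052089-136052388, whose start lies 100 bases from the GENCODE start.
Stard8: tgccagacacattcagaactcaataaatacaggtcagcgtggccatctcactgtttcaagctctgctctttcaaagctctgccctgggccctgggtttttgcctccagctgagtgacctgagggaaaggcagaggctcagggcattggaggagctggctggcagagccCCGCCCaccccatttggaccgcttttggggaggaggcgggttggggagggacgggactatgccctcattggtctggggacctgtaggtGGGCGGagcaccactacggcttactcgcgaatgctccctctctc
Lamp5: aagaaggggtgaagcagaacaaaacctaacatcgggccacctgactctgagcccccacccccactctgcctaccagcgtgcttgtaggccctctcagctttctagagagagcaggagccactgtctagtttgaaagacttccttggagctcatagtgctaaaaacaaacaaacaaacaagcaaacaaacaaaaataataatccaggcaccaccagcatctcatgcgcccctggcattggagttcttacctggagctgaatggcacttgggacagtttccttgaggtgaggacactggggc
The Lamp5 window was 50.7% G or C with 3 CpG dinucleotides and held no GC box letters, and the Stard8 window was 59.3% G or C with 9 CpG. The median over all 32851 windows was 52.7% and 7 CpG, while the windows at the starts of Lhx2, Pou3f2 and Rorb held 34, 24 and 20 CpG. The Cux2 window nearest to the start of the GENCODE gene held 48 CpG. Searched on both strands, GGGCGG was found in windows of Lhx2, Pou3f2, Rorb and Stard8, and in 35.7% of all windows. TATAAA was found in a window of Cux2 and in 13.6% of all windows, and TGACG in a window of Lhx2 and in 20.8% of all. The octamer ATGCAAAT, the homeodomain core TAATTA and the E-box CACGTG were in no member window, against 1.73%, 5.29% and 7.15% of all windows. No search motif was shared by Lamp5 and Stard8.

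Library totals ran from 37.7 M to 68.3 M counts with a median of 48.6 M, and the fewest counts of any member in any library was 2052, for Lhx2. The tissue label was checked against markers. Slc17a7, the vesicular glutamate transporter of cortical excitatory neurons, had a median of 1358 CPM, and the striatal receptor genes Drd1 and Adora2a had medians of 6.10 and 1.90 CPM. The extraction protocol in the labels names striatum and another age, while every other label names cortex at 12 months. Msh3 itself averaged 95.3 CPM in Q140 Msh3-/-, 99.2 CPM in Msh3-/-, 57.9 CPM in Q140 Msh3+/-, 60.1 CPM in Msh3+/-, 21.8 CPM in Q140 and 22.4 CPM in WT libraries. The gene counts therefore followed the labelled number of mutant alleles but were higher, not lower, in the mutants, and since the deleted part is not stated they do not measure the loss of the protein. Every Msh3 direction below is between libraries labelled with these genotypes. Htt differed between no groups under the adjusted threshold (edgeR quasi-likelihood test). Library M2 of Msh3+/- held 626 CPM of choroid plexus genes and library M2 of WT 45.2 CPM of pituitary genes, against medians of 8.49 and 0.745 CPM over all libraries. No call on a member changed without those 2 libraries.

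Compared per kilobase, Lamp5 was the most abundant member. It averaged 99.9 ± 10.9 FPKM (the authors' values, scaled for gene length and library size; SD over all 48 libraries). Calb1 averaged 22.5 ± 1.66 and Cux2 21.4 ± 1.76 FPKM, 2 neighbours whose difference lies within their spread. Lhx2 followed at 13.8 ± 1.09, Pou3f2 at 11.8 ± 0.761, Stard8 at 10.7 ± 0.962, Rorb at 10.5 ± 0.907 and Cux1 at 10.1 ± 0.777 FPKM, and the last 3 lie within their spread of one another. The values below are CPM, which depend on gene length and compare libraries, not genes. The coefficient of variation over the 48 libraries ran between 6.76% for Pou3f2 and 11.4% for Lamp5.

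**Figure D1:**
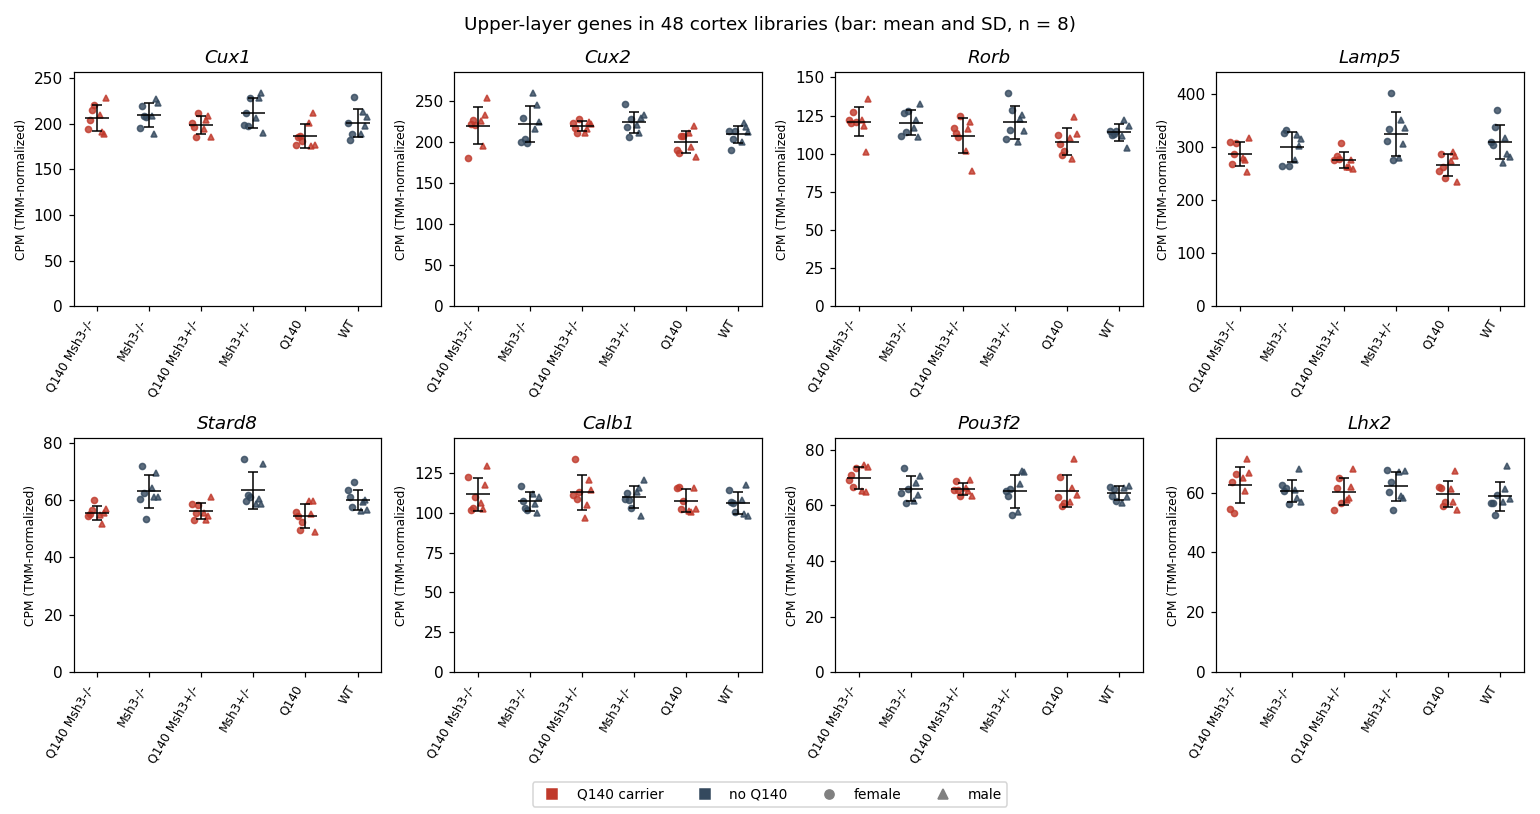
Level of each gene in CPM (linear axis from 0) in the 48 libraries, by genotype, with circles for females, triangles for males, red for Q140 carriers and dark blue for mice without Q140, and bars for mean and SD over 8 libraries. Stard8 and Lamp5 sit lower in the Q140 groups than in their partners without Q140 while all pairs of groups overlap, and the other 6 genes show smaller steps.

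The first comparison asks how the genes stand in mice with the Q140 allele, on each Msh3 background and averaged over them. Stard8 and Lamp5 stood lowest relative to mice without Q140, Cux1, Rorb and Cux2 were a little lower, and Calb1, Pou3f2 and Lhx2 were level or slightly higher. Averaged over the Msh3 genotypes, Stard8 measured 55.4 ± 3.17 CPM in Q140 carriers and 62.1 ± 5.30 CPM in non-carriers (SD, n = 24 each), and Lamp5 275.5 ± 20.98 CPM in carriers and 310.8 ± 34.3 CPM in non-carriers. The fitted level fell by 10.8% for Stard8 and by 11.4% for Lamp5. These are the values the choice of members used, and no test is read from them.

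Stard8 had a lowest, median and highest level of 48.8, 54.9 and 59.8 CPM in Q140 libraries, against 56.3, 59.6 and 66.3 CPM in WT. On the Msh3+/- background it had 52.9, 55.4 and 61.1 CPM in Q140 Msh3+/-, against 58.5, 60.6 and 74.2 CPM in Msh3+/-. On the Msh3-/- background it had 51.5, 55.3 and 59.9 CPM in Q140 Msh3-/-, against 53.4, 61.8 and 71.7 CPM in Msh3-/-. The groups overlapped on all 3 backgrounds, yet 6, 6 and 1 of the 8 Q140 libraries lay below the lowest library of their partner group on the WT, Msh3+/- and Msh3-/- backgrounds, and 6, 7 and 8 lay below its median. The log2 difference was -0.14 ± 0.05 on the WT, -0.17 ± 0.05 on the Msh3+/- and -0.18 ± 0.05 on the Msh3-/- background (SE), close to one another, with an average of -0.16 ± 0.03.

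Lamp5 had 234.0, 266.8 and 290.1 CPM as lowest, median and highest level in Q140 libraries, against 269.1, 306.0 and 368.9 CPM in WT. On the Msh3+/- background it had 258.8, 275.5 and 306.2 CPM in Q140 Msh3+/-, against 275.6, 322.1 and 400.7 CPM in Msh3+/-. On the Msh3-/- background it had 252.6, 282.5 and 317.1 CPM in Q140 Msh3-/-, against 263.0, 308.2 and 330.8 CPM in Msh3-/-. Every Q140 library lay below the WT median and every Q140 Msh3+/- library below the Msh3+/- median, as did 6 of 8 Q140 Msh3-/- libraries below the Msh3-/- median, and the groups overlapped in all 3 pairs. The log2 difference was -0.22 ± 0.06 on the WT, -0.24 ± 0.06 on the Msh3+/- and -0.07 ± 0.06 on the Msh3-/- background, with an average of -0.17 ± 0.04.

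Among the other members, Cux1 averaged a log2 difference of -0.07 ± 0.03, Rorb -0.06 ± 0.03 and Cux2 -0.04 ± 0.03 between Q140 carriers and non-carriers. For Cux1 the value was -0.11 ± 0.05 on the WT, -0.09 ± 0.05 on the Msh3+/- and -0.02 ± 0.05 on the Msh3-/- background. For Rorb it was -0.08 ± 0.06 on the WT, -0.11 ± 0.06 on the Msh3+/- and 0.01 ± 0.06 on the Msh3-/- background. Calb1 and Pou3f2 both averaged 0.04 ± 0.03 and Lhx2 0.01 ± 0.03. The set of 8 is thus uneven, with 5 members below 0 and 3 above.

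As a description of values that chose the members, 2 of 8, Stard8 and Lamp5, were below an adjusted p of 0.05 in the averaged Q140 comparison (edgeR quasi-likelihood fit, Benjamini-Hochberg over all genes), where 1.47% of all tested genes were so in either direction and 0.762% were lower. None of the 8 was so in the separate comparisons, where the background was 0.102% of genes for Q140 against WT, 0.0512% for Q140 Msh3+/- against Msh3+/- and 0.0205% for Q140 Msh3-/- against Msh3-/-. At an unadjusted p under 0.05 the fit counted 3, 2 and 1 members in these 3 comparisons, of 1720, 1518 and 1323 genes, and DESeq2 likewise gave no member an adjusted p under 0.05. The choice of members fixed these counts, so they are no test and nothing is read from them. The median log2 difference of the members was -0.07 on the WT, -0.07 on the Msh3+/- and -0.0028 on the Msh3-/- background and -0.05 on average, against 0.00063, 0.0029, -0.0010 and -0.00084 over all tested genes.

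**Figure D2:**
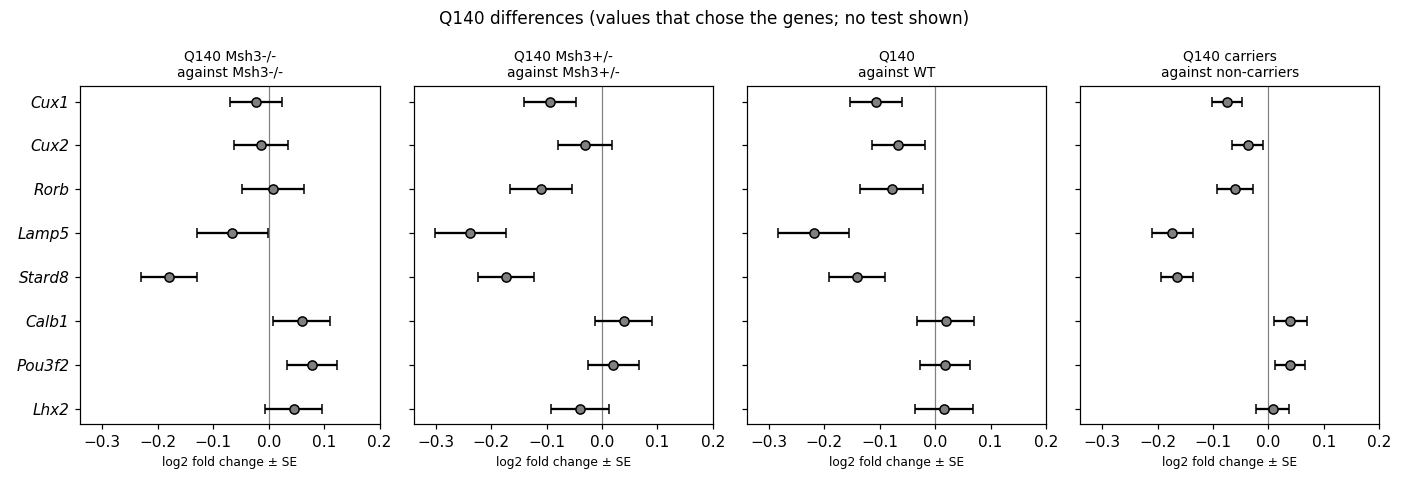
Log2 fold change ± SE of each gene between libraries with and without Q140, on the Msh3-/-, Msh3+/- and WT backgrounds and averaged over them, with points to the left of 0 lower in Q140. These values chose the genes, so no test is marked, and Stard8 has a like value on all backgrounds while Lamp5 is nearer 0 on Msh3-/-.

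Whether the Q140 difference changed with Msh3 genotype was fitted as an interaction, the difference between Q140 comparisons that were used in choosing the members. Its values are therefore a description and no independent test. None of 8 members passed for either Msh3 genotype, where 0% of tested genes passed with Msh3+/- and 0% with Msh3-/- (edgeR, adjusted p under 0.05), and no member had an unadjusted p under 0.05, against 646 and 626 of all genes. DESeq2 passed no member either. Lamp5 had the largest interaction with Msh3-/- among the members, a log2 value of 0.15 ± 0.09 (edgeR, unadjusted p = 0.0962, adjusted p = 1). Its Q140 difference was smaller on the Msh3-/- than on the WT background, and nothing is read from the size or p of that gap. For Stard8 the interaction with Msh3-/- was -0.04 ± 0.07 and with Msh3+/- -0.03 ± 0.07 (edgeR, adjusted p = 1 and 0.999). With Msh3-/-, 7 of 8 members were above 0 and Stard8 below, with a median of 0.06, and with Msh3+/- 4 were above and 4 below, with a median of -0.0079.

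Lists of other cell types are given beside the averaged Q140 comparison. These lists were chosen with earlier results of these data known, so their counts are a description and no independent test. Of all tested genes, 1.47% passed the adjusted threshold in either direction and 0.762% passed as lower (edgeR). The summed level of 11 astrocyte genes ran from 6663 to 7898 CPM, with a median of 7189, in Q140 carriers, and from 7115 to 8912 CPM, with a median of 8118, in non-carriers. All 11 were below 0 and 5 of them passed the adjusted threshold. The sum of 10 genes of excitatory neurons in general had a range of 6989 to 7951 CPM and a median of 7441 in carriers, against 7346 to 8369 CPM and a median of 7980 in non-carriers. Camk2a, with a median of 5092 CPM over all libraries, made up most of this sum. The 10 had 6 genes below 0, 1 of which passed, and 4 above, with a median log2 difference of -0.016. The sum of 14 interneuron genes, the cells that also express Lamp5 and Calb1, had a range of 1101 to 1254 CPM and a median of 1151 in carriers, against 1084 to 1222 CPM and a median of 1169 in non-carriers, and 6 of the 14 were below 0 and 8 above with none passing. All 7 endothelial, 7 meningeal and 8 choroid plexus genes tested lay below 0, with medians of -0.07, -0.21 and -0.71, and none of them passed. The endothelial sum ran from 170.4 to 260.2 CPM with a median of 224.3 in carriers, against 213.0 to 280.2 CPM with a median of 248.1 in non-carriers. The meningeal sum ran from 20.7 to 129.7 CPM with a median of 85.7 in carriers, against 55.9 to 147.7 CPM with a median of 99.7 in non-carriers. The choroid plexus sum ran from 4.15 to 14.3 CPM with a median of 8.49 in carriers, against 4.31 to 625.8 CPM with a median of 8.92 in non-carriers, which include the Msh3+/- library named above. Of 10 oligodendrocyte genes 6 were below 0 and 1 passed, and of 8 microglia genes 7 were above 0 and none passed. Striatal genes were 5 below and 5 above 0 with 1 passing, hippocampal 4 and 4 with 1 passing, thalamic 4 and 2 with none, pituitary 3 and 0 with 1, and blood 0 and 4 with none. The part of these sums in the Stard8 and Lamp5 values was not tested. With the column of the labelled well address as a further term, the averaged log2 difference was -0.16 ± 0.03 for Stard8 and -0.16 ± 0.04 for Lamp5.

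The second comparison asks how the genes stand in mice labelled as Msh3 mutants. All 8 members lay above 0 in Msh3-/- mice averaged over Q140, with a median log2 difference of 0.06 against 0.0048 over all tested genes, 47.4% of which lay below 0. None of the 8 passed the adjusted threshold, where 0.215% of all tested genes did (edgeR quasi-likelihood test), and 4 had an unadjusted p under 0.05, as did 2921 of the 19547 genes. DESeq2 also passed none. This contrast is orthogonal to the Q140 comparison that chose the members.

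The 3 layer markers Rorb, Cux2 and Cux1 held the largest values. Rorb had a lowest, median and highest level of 101.2, 121.5 and 135.6 CPM in Q140 Msh3-/- and 111.0, 119.4 and 132.5 CPM in Msh3-/-, against 96.4, 108.4 and 123.8 CPM in Q140 and 103.7, 114.0 and 122.3 CPM in WT. Its log2 difference was 0.12 ± 0.04 averaged over Q140 (edgeR, unadjusted p = 0.00366, adjusted p = 0.153). The groups overlapped, and 7 of 8 Q140 Msh3-/- libraries reached at least the median of Q140.

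Cux2 had 181.0, 224.0 and 254.2 CPM in Q140 Msh3-/- and 198.9, 220.6 and 259.7 CPM in Msh3-/-, against 182.2, 200.9 and 219.2 CPM in Q140 and 190.5, 213.2 and 222.8 CPM in WT. The averaged log2 difference was 0.11 ± 0.03 (edgeR, unadjusted p = 0.00231, adjusted p = 0.132). In this gene 6 of 8 Q140 Msh3-/- libraries lay above the highest Q140 library and 1 below the lowest, so the 2 groups overlapped.

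Cux1 had 188.8, 207.0 and 228.6 CPM in Q140 Msh3-/- and 189.0, 208.8 and 227.3 CPM in Msh3-/-, against 175.3, 183.1 and 211.5 CPM in Q140 and 181.9, 198.9 and 229.1 CPM in WT. The averaged log2 difference was 0.10 ± 0.03 (edgeR, unadjusted p = 0.00285, adjusted p = 0.142). All 8 Q140 Msh3-/- libraries lay at or above the Q140 median, and 3 lay above its highest library. Pou3f2 had 64.9, 70.0 and 74.5 CPM in Q140 Msh3-/- and 60.9, 65.2 and 73.6 CPM in Msh3-/-, against 59.8, 63.3 and 76.7 CPM in Q140 and 60.7, 64.8 and 67.0 CPM in WT, an averaged log2 difference of 0.07 ± 0.03 (edgeR, unadjusted p = 0.0408, adjusted p = 0.307).

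The other 4 members differed less. The averaged Msh3-/- log2 difference was 0.06 ± 0.04 for Lhx2, 0.05 ± 0.04 for Stard8, 0.03 ± 0.05 for Lamp5 and 0.03 ± 0.04 for Calb1. Stard8 and Lamp5, with the most negative Q140 differences, were thus not those with the largest Msh3-/- differences.

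Split by Q140, 8 of 8 members lay above 0 for Q140 Msh3-/- against Q140 and 7 of 8 for Msh3-/- against WT, where Lamp5 was at -0.04 ± 0.06. These 2 comparisons share no library, but members measured in the same libraries are not independent of one another. Of all tested genes, 48.6% and 47.8% lay below 0. No member passed in either comparison, where 0.102% and 0.113% of all tested genes did (edgeR, adjusted p under 0.05), nor with DESeq2. At an unadjusted p under 0.05 there were 4 and 0 members, of 1340 and 2119 genes. The largest values in Q140 Msh3-/- against Q140 were Rorb at 0.17 ± 0.06, Cux1 at 0.15 ± 0.05 and Cux2 at 0.14 ± 0.05 (edgeR, adjusted p = 0.630, 0.582 and 0.654). Both comparisons use reference libraries that also entered the choice of members, Q140 in the first and WT in the second.

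In mice with 1 mutant Msh3 allele, all 8 members lay above 0 both for Q140 Msh3+/- against Q140 and for Msh3+/- against WT. In these comparisons 49.0% and 49.1% of all tested genes lay below 0, against 0 of the 8 members. The Q140 and WT libraries used as references here also entered the choice of members. A low level in Q140 that helped that choice would by itself raise the values against Q140. Members measured in the same libraries are also not independent of one another, so the shared direction is a description. None passed in either, where 0.0307% of genes passed in the first and 0.0307% in the second (edgeR, adjusted p under 0.05), nor with DESeq2, and 1 member in each, Cux2, had an unadjusted p under 0.05, of 1216 and 969 genes. Cux2 measured a log2 difference of 0.13 ± 0.05 in Q140 Msh3+/- against Q140 and 0.10 ± 0.05 in Msh3+/- against WT (edgeR, adjusted p = 0.777 and 0.963). The comparisons of Msh3+/- and Msh3-/- mice share their Msh3+/+ libraries, so a low level in those enters both. The median of the members was 0.05 in Q140 Msh3+/- against Q140 and 0.08 in Msh3+/- against WT, beside 0.10 in Q140 Msh3-/- against Q140 and 0.05 in Msh3-/- against WT.

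**Figure D3:**
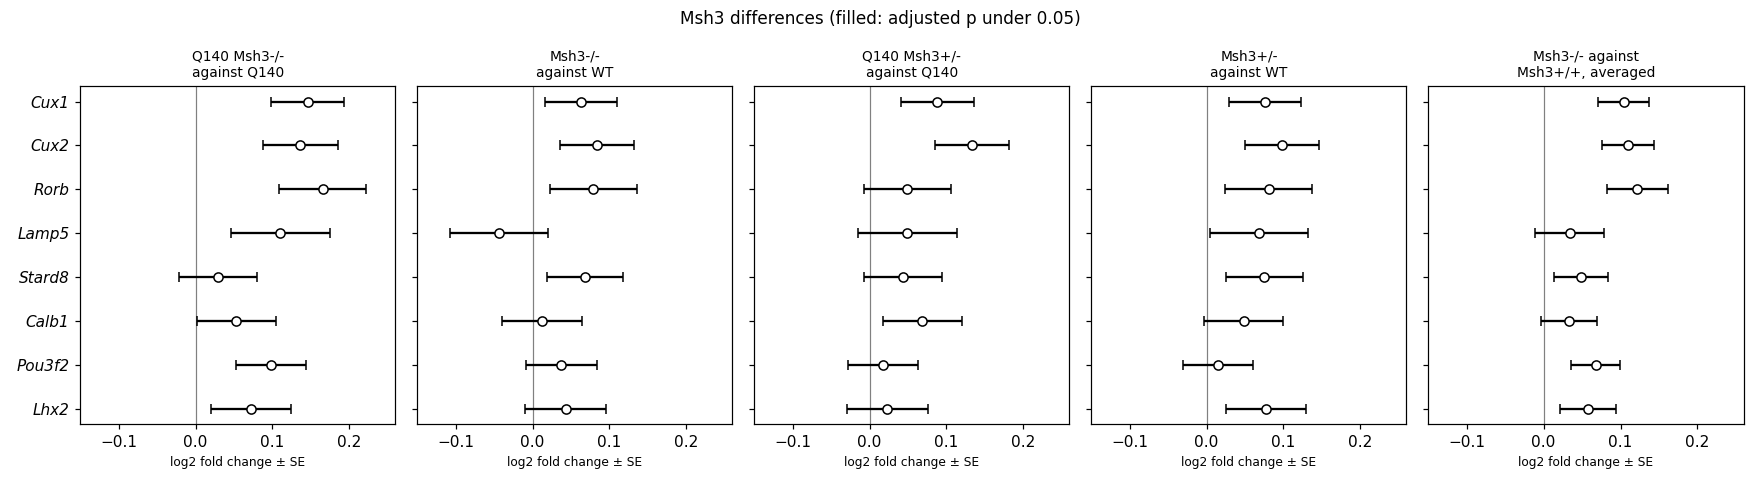
Log2 fold change ± SE of each gene for libraries labelled with mutant Msh3 alleles against Msh3+/+ libraries, with and without Q140 and averaged. All points are open, since no adjusted p was under 0.05, and all lie right of 0 except Lamp5 in Msh3-/- against WT.

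Genes of the deeper layers mostly lay below 0 in the Msh3 comparison. Averaged over Q140, Msh3-/- mice had 14 of 15 layer 5 genes and 14 of 15 layer 6 genes below 0, with medians of -0.08 and -0.13, and 0 of either list passed the adjusted threshold. Of 17 other upper-layer genes, 10 lay above 0 and 7 below with a median of 0.06. In that list 1 passed, Plxnd1, the gene of a semaphorin receptor, which was higher in Msh3-/- mice by a log2 value of 0.14 ± 0.03 (edgeR, adjusted p = 0.0125). It also passed in Q140 Msh3-/- against Q140, at 0.19 ± 0.04 (edgeR, adjusted p = 0.0301). Summed over 15 genes, layer 5 had 474.7 CPM as its median in Q140 Msh3-/- and 480.3 CPM in Msh3-/-, against 503.0 CPM in Q140 and 514.3 CPM in WT, and layer 6 had 377.6 CPM in Q140 Msh3-/- and 385.7 CPM in Msh3-/-, against 403.9 CPM in Q140 and 403.3 CPM in WT. Within the layer 6 sum, Tbr1 alone had a median of 189.5 CPM over all libraries. Lists of other cell types also leaned to a side in this comparison, with 8 of 8 microglia genes (median 0.04) and 6 of 8 hippocampal genes (median 0.10) above 0, and 7 of 7 meningeal genes (median -0.15) and 8 of 10 oligodendrocyte genes (median -0.06) below 0, none of which passed. Also with none passing, 5 of 7 endothelial, 6 of 8 choroid plexus, 3 of 3 pituitary, 6 of 10 striatal, 4 of 6 thalamic and 6 of 11 astrocyte genes lay below 0, while 4 of 4 blood and 8 of 14 interneuron genes lay above it. The part of these lists in the member values was not tested.

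In the averaged Q140 comparison the other upper-layer genes had 12 of 17 below 0 and a median of -0.03, layer 5 had 10 of 15 above 0 and a median of 0.03, and layer 6 had 11 of 15 above 0 and a median of 0.07. None of these genes passed. The layer lists too were chosen with earlier results of these data known, so their Q140 values are a description. The layer 6 genes of smallest p were Ntsr1, a neurotensin receptor of corticothalamic neurons, at 0.28 ± 0.08 and Rprm at 0.24 ± 0.08 (edgeR, adjusted p = 0.0735 and 0.11). In layer 5 they were Hsd11b1 at -0.15 ± 0.05 and Slc17a8 at 0.19 ± 0.06 (edgeR, adjusted p = 0.0864 and 0.116).

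**Figure D4:**
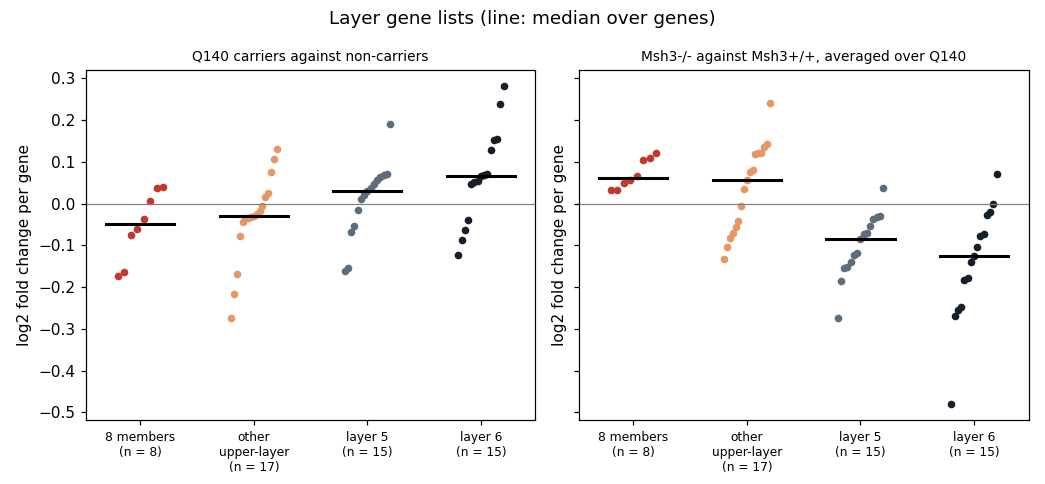
Log2 fold change of each gene in 4 lists, with a line at the median, for Q140 carriers against non-carriers (left) and Msh3-/- against Msh3+/+ averaged over Q140 (right). In the right panel the 8 members lie above 0 and 14 of 15 genes of layer 5 and of layer 6 below it, and in the left panel the member median is -0.05 and that of layer 6 is 0.07.

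Male and female mice were compared in the same fit, which the choice of members did not use. None of the 8 passed, where 4.28% of all tested genes did (edgeR, adjusted p under 0.05), nor with DESeq2. The 2 members with an unadjusted p under 0.05, of 3401 genes, were Lhx2, at 62.0 ± 4.84 CPM in males and 59.3 ± 4.30 CPM in females (SD, n = 24 each), and Cux2, at 220.2 ± 17.8 CPM in males and 211.6 ± 15.8 CPM in females. Their log2 differences were 0.07 ± 0.03 and 0.06 ± 0.03 (edgeR, adjusted p = 0.228 and 0.273). Stard8, though X-linked, had 58.5 ± 5.22 CPM in males and 59.0 ± 5.85 CPM in females, a log2 difference of -0.01 ± 0.03 (edgeR, adjusted p = 0.887). Of the other upper-layer list, Rspo1, a secreted activator of Wnt signalling, was lower in males, with a log2 difference of -0.21 ± 0.05, and Lmo4, a LIM-domain gene, higher, with 0.09 ± 0.03 (edgeR, adjusted p = 0.00802 and 0.0273).

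The spread of libraries within a group shows which of these genes vary together, and it was not used in the choice. Log2 CPM was centred within genotype and sex, and the 28 pairs of members were correlated over the 48 libraries. Of these, 24 pairs had a positive r, the median was 0.174, and 4 passed an adjusted p under 0.05 (permutation test, two-sided, adjusted over the 28 pairs). They linked Stard8 with Lhx2 and Cux2, and Cux1 with Rorb and Cux2.

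For Stard8 and Lhx2, Pearson's r was 0.587 and Spearman's coefficient 0.597 (permutation p = 5e-05 for each, adjusted p = 0.000933 and 0.0014). Without the 2 libraries farthest from the median of Lhx2, r was 0.585. In each pair, the 2 libraries left out were those farthest from the median of its alphabetically first gene. Stard8 and Cux2 had r = 0.575 and Spearman's coefficient = 0.562 (permutation p = 7e-05 and 0.00035, adjusted p = 0.000933 and 0.00327), and r = 0.584 without 2 libraries. For Cux1 and Rorb, r was 0.570 and Spearman's coefficient 0.582 (permutation p = 0.0001 for each, adjusted p = 0.000933 and 0.0014), and 0.609 without 2 libraries. Cux1 and Cux2 had r = 0.520 and Spearman's coefficient = 0.498 (permutation p = 0.00146 and 0.00224, adjusted p = 0.0102 and 0.0157), and r = 0.576 without 2 libraries.

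With the column of the well address also removed, these 4 values were 0.549, 0.557, 0.712 and 0.417, and the median over the 28 pairs was 0.0858. Rorb and Lhx2 had the lowest value, r = -0.383 and Spearman's coefficient = -0.391 (permutation p = 0.0199 and 0.0149, adjusted p = 0.0797 and 0.0832), and r = -0.341 without 2 libraries. Lamp5 and Stard8, the 2 genes with the most negative averaged Q140 differences, had r = 0.328 and Spearman's coefficient = 0.290. Neither value passed (permutation p = 0.102 and 0.0973, adjusted p = 0.284 and 0.248), and r was 0.373 without 2 libraries.

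**Figure D5:**
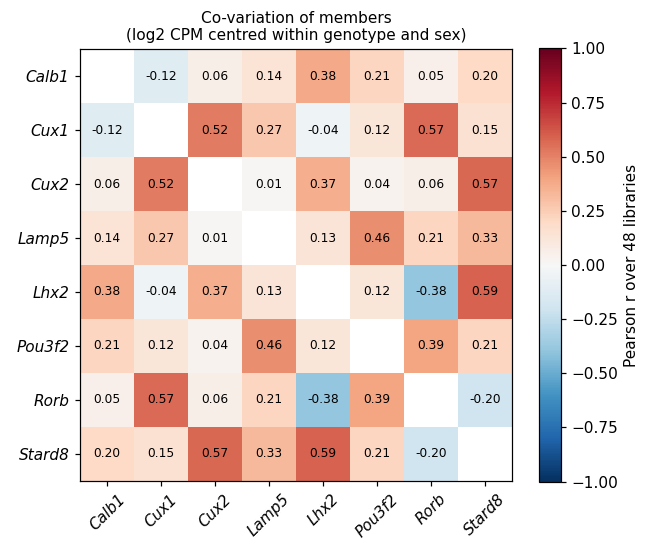
Pearson r between each pair of members over 48 libraries, from log2 CPM centred within genotype and sex, on a colour scale from -1 (blue) to 1 (red). The highest cells join Lhx2, Stard8 and Cux2, and Rorb, Cux1 and Cux2, and the lowest is Lhx2 with Rorb at -0.383.

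Of 15113 genes with a mean of at least 1 CPM, those outside the members whose centred level was most like the mean of the 8 members over the 48 libraries were Unc5d (r = 0.671), a netrin receptor gene known from upper layers, Brinp1 (0.657), Prkca (0.650), Rspo1 (0.639) and Camk4 (0.637). The lowest were Rprm (-0.694), Foxp2 (-0.693), a transcription factor gene of layer 6, and Dkk3 (-0.668). These values are a description, and the libraries share depth scaling and tissue composition. By list, the median r was 0.344 over the 16 other upper-layer genes measured at that level, -0.114 over 15 layer 5 genes and -0.458 over 14 layer 6 genes. The median was 0.241 over 11 astrocyte genes, 0.208 over 14 interneuron genes and 0.207 over 6 thalamic genes. It was -0.0031 over 10 genes of excitatory neurons in general and -0.142 over 10 oligodendrocyte genes. The members, though each is part of the mean, ran from 0.394 for Rorb, at rank 319, to 0.657 for Stard8.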

How the data were processed

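RNA-seq libraries of mouse cortex were analysed from the deposited tables of the authors. The deposited counts are whole-number reads per gene, and the deposited FPKM values are the authors' scaling of these for gene length and library size, per the file headers. Reads were processed with STAR 2.7.5c, SAMtools 1.10 and HTSeq 0.12.3 on GRCm38, per the submitters' processing notes. The annotation release and the strand setting are not given in the sources used here.

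Genes passing filterByExpr (minimum count 10, minimum total 15) were tested with edgeR 4.0.16 (R 4.3.3), using TMM scaling and robust quasi-likelihood fits over 6 genotypes with sex as an additive term. All 12 contrasts came from this fit, with Benjamini-Hochberg adjusted p under 0.05 as the threshold. CPM values use TMM library sizes. DESeq2 1.42.0 was the other tool. Member pairs were tested with 100000 permutations within genotype and sex (SciPy 1.17.1), whose smallest possible p is 1e-05. The scripts were tested on simulated data. Each library is a separate mouse according to the labels, and no pair of columns was identical.

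The text names the 8 members, Msh3 and Htt, other upper-layer genes that passed, and the 5 genes most and 3 least like the members. Also named are 2 genes of each deep layer by smallest p in the averaged Q140 comparison. Marker genes used to check the tissue label, and Camk2a and Tbr1 for their share of list sums, were named after their values were seen. Members and lists were chosen with earlier results of these data known. Alternatives were another scaling, tool and filter, no sex term, the replicate number as a block, the column of the well address, only the groups compared, 2 libraries left out, and each library left out in turn.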

Additional observations from a re-analysis of the deposited data

How the results depend on the processing

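The number of members passing was the same in all 92 alternative results and 304 results with 1 library left out, each counted as 1 comparison in 1 setting. It was 2 in the averaged Q140 comparison, where the values chose the members and a repeat of the call adds no support, and 0 elsewhere. The members' median log2 difference changed sign in 3 comparisons where it lay near 0, ranging from -0.03 to 0.01 for Q140 Msh3-/- against Msh3-/- and from -0.03 to 0.02 for the interaction with Msh3+/- with 1 library left out, and, for male against female, from -0.0021 to 0.0038 over the alternatives and from -0.0045 to 0.01 with 1 library left out. Directions of single members were compared where a value exceeded its SE. Centred within genotype only, 7 member pairs passed (6 of them positive) against 4. The count over all genes moved by over 1.5 times in some settings. DESeq2 gave 34 against 20 for Q140 against WT, 22 against 10 for Q140 Msh3+/- against Msh3+/-, 465 against 288 in the averaged Q140 comparison, 10 against 6 for Msh3+/- against WT and 159 against 42 for averaged Msh3-/-. With the column of the well address, Q140 against WT had 11 and the averaged Q140 comparison 102. No WT library was in columns 1 or 4 and no Q140 library in columns 3 or 4, so column and genotype are partly confounded. Without the 2 libraries with choroid plexus or pituitary genes, Q140 against WT had 13 and the averaged Q140 comparison 185. With only the groups compared in the fit there were 2 against 4 for Q140 Msh3-/- against Msh3-/-, 2 against 6 for Msh3+/- against WT, 13 against 22 for Msh3-/- against WT and 12 against 20 for Q140 Msh3-/- against Q140. Leaving out Q140 Msh3+/- F1 or Msh3-/- F3 gave 454 or 475 in the averaged Q140 comparison, and leaving out Q140 Msh3-/- F1, Q140 Msh3-/- M2, Q140 M1 or WT F2 gave 97, 109, 90 or 76 for averaged Msh3-/-. Q140 against WT had 13 without Q140 M2, WT F4 or WT M2, and Q140 Msh3-/- against Q140 had 13 without Q140 Msh3-/- M4. The causes were not tested. Same-numbered libraries were not treated as pairs in the main fit. Of 120 such pairs 26 correlated over 0.1, a count not made for other pairs, and their mean was 0.0189 against -0.0059 for others. Among libraries of other groups and the same sex, 20 of 48 correlated best with their own number, where 12 would if the number played no part, a hint from the data and not from the design. The replicate block gave 17 against 10 genes for Q140 Msh3+/- against Msh3+/- and 91 against 42 for averaged Msh3-/-, and changed no call on a member. No member had under 2052 counts in a library.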
